A study of Mus musculus with 12 samples.

Results

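The miR-23/27/24 family comes from 2 sites in the mouse genome, the a cluster (mir-23a, mir-27a and mir-24-2) and the b cluster (mir-23b, mir-27b and mir-24-1), and its levels were followed here as endoderm gives rise to pancreatic progenitors. Members were taken as every row of the count table whose name is mir-23a, mir-23b, mir-27a, mir-27b or mir-24 with any suffix, which gave 14 of 1053 entries. Of these, 9 were mature arms and 5 were precursors, so 5 entries belonged to the a cluster and 8 to the b cluster, and mmu-miR-24-3p can come from both. They were chosen by name and not by a measured value, although earlier results of these data were known. The precursor mir-27a and the arms miR-27a-5p and miR-24-2-5p were not analysed here.

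Small RNA was sequenced from 12 libraries of sorted mouse embryonic cells, 3 at each of 4 stages. The E8.5 cells were endoderm marked by Foxa2-CreER, a tamoxifen-inducible Cre at the Foxa2 locus (the Foxa2 mcm allele), and came from whole embryos. The E9.5, E10.5 and E11.5 cells were marked by Pdx1-Cre, which is driven by a gene of the pancreatic and duodenal epithelium, and came from the trunk, so they are the Pdx1-Cre lineage and not pancreas alone. All groups carried the tdTomato reporter by which they were sorted, and per the study's methods the males of these crosses carried 1 mir-302 allele replaced by eGFP, so the mir-302 genotype of each embryo is not known here. Between E8.5 and E9.5 the Cre driver, the dissected region and the tamoxifen given to the dams of the E8.5 embryos alone changed along with the stage, and a number in the library names was shared by the 3 libraries of a stage, so a batch that it marks and the stage cannot be told apart. Nothing in the labels says whether the replicates were separate litters, and the p-values then measure only the spread between these libraries.

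MicroRNAs are cut from hairpin precursors, and the mature strand guides the Argonaute proteins to messenger RNAs, chiefly through its seed, the bases from the second to the eighth. Hairpins that lie close together on 1 strand are usually made as a single primary transcript, so the 3 miRNAs of a cluster can share their transcription while differing in how they are cut and how long they last. The family is best known from blood vessels, blood cells, muscle and fat, and both clusters encode the same seeds.

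The sequences show which members a seed cannot separate and which reads could be assigned to either cluster. RefSeq (GRCm38.p6) held the sequences below, printed 5′ to 3′ with the seed in capitals.
mmu-miR-23a-3p: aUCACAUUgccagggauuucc
mmu-miR-27a-3p: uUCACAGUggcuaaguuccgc
mmu-miR-27b-3p: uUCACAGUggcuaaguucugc
mmu-miR-24-3p: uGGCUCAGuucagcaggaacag
The other member of the miR-23 pair was mmu-miR-23b-3p. The miR-27 arms shared the seed UCACAGU and were equal in all but 1 of 21 bases, C19U from miR-27a-3p to miR-27b-3p, counted from 1 at the 5′ end. The mature miR-24-3p sequence was identical at both sites, so its reads cannot be split between the clusters. The arm miR-24-1-5p of the b cluster shared its seed with its a cluster counterpart and differed further on.
mmu-miR-24-1-5p: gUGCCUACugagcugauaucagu
mmu-miR-24-2-5p: gUGCCUACugagcugaaacagu

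The hairpins differed more than the arms. The alignment of Mir23a with Mir23b was identical in 73.8% of its columns (59 bases). That of Mir27a with Mir27b was identical in 61.1% (58 bases) and that of Mir24-2 with Mir24-1 in 54.5% (60 bases). Gaps count as columns, so unequal annotated lengths lower these shares, and their order does not rank the pairs by likeness. The lengths were 75 and 74 bases for Mir23a and Mir23b, 87 and 73 for Mir27a and Mir27b, and 107 and 68 for Mir24-2 and Mir24-1. The miR-23a-3p seed occurred once in the hairpins of both sites and began at base 47 in each, shown here in capitals.
Mir23a: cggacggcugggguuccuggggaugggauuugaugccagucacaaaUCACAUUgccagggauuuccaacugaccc
Mir23b: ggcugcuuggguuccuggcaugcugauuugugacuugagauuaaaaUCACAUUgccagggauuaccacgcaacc

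In GRCm38 the a cluster spanned 404 bp of the plus strand at chr8:84208518-84208921, between the protein-coding genes Nanos3 and Zswim4. Mir23a and Mir27a overlapped no other annotated gene, and Mir24-2 overlapped an exon of the non-coding RNA gene Gm26532. The b cluster spanned 792 bp of the plus strand at chr13:63300484-63301275, inside 2010111I01Rik on the same strand and in an intron of Fancc on the opposite strand. Mir23b lay in an intron of 2010111I01Rik, and Mir27b and Mir24-1 overlapped an exon of at least 1 of its annotated transcripts. Each Mir24 hairpin also overlapped a Mir3074 hairpin on the opposite strand.

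Depth limited what could be seen. The E8.5 libraries held 386094 to 594224 counts and the E9.5 libraries only 53996 to 80075, while those of E10.5 had 133435 to 267978 and those of E11.5 had 417743 to 1103383, so that 3 counts, taken as the detection floor, stood for 32.0 to 75.9 CPM (the count scaled to a fixed library total, with TMM-scaled library sizes) at E9.5 and for 25.8 CPM or less elsewhere. The entries mir-6236 and mir-6240 took 12.7 to 28.3% of the E9.5 counts and at most 3.10% at the other stages, with the highest share in E9.5 replicate 3, whose TMM factor of 0.732 was the lowest. The random bases of the reads had not been used to count molecules, so counting error alone understates the error of these read counts. In sorted cells in bulk, fewer cells of a type and less RNA per cell cannot be told apart. Of the 14 members, 13 passed the filter on low counts. The arm miR-24-1-5p did not, with 49 counts in E10.5 replicate 1 and 0 in the other 11 libraries. Among the 13, mir-24-1 and mir-24-2 had equal counts in every library, so the numbers of members given below hold 1 measurement as 2 entries.

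Together the 14 members took 0.647 ± 0.146% of all E8.5 counts (mean ± SD, n = 3, as in all values of this kind). Their share was 2.54 ± 0.550% in the E9.5, 2.15 ± 0.205% in the E10.5 and 2.22 ± 0.0275% in the E11.5 libraries. The family was thus a larger share in all 9 Pdx1-Cre libraries than in any Foxa2-CreER library. The 5 main mature arms summed to 5570 ± 1377 CPM at E8.5 and, in the order of the later stages, to 27055 ± 12299, 20534 ± 713 and 20518 ± 1137 CPM. The members are described in turn.

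mmu-miR-24-3p, the member made from both sites, was the most abundant at E10.5 and E11.5 in every library. Its CPM was 2449, 1813 and 2782 in the E8.5 libraries (replicates 1 to 3). The E9.5 libraries had 8948, 8853 and 10039, those of E10.5 had 12938, 11930 and 9772, and those of E11.5 had 9971, 9984 and 10573. All 9 later libraries lay above all 3 E8.5 libraries, and those of E9.5 to E11.5 formed a narrow band in which E10.5 overlapped both of its neighbours. miR-24-3p rose from E8.5 to E9.5 by 1.98 on the log2 scale (SE 0.37), a fold of 3.95, and edgeR's quasi-likelihood test gave an adjusted p of 8.60e-04. It kept this call in all 10 alternative fits and in all 12 fits that left out 1 library, with log2 fold changes of 1.67 to 2.63. None of the later steps passed the test, and their log2 fold changes were 0.32 (E10.5 over E9.5, adjusted p 0.622 in edgeR) and -0.18 (E11.5 over E10.5, adjusted p 0.908), the first with its sign reversed under other scalings.

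mmu-miR-23b-3p, from the b cluster, was at 1638, 958 and 606 CPM in the E8.5 libraries. The E9.5 libraries had 2761, 4357 and 5513 CPM, those of E10.5 had 2554, 2113 and 3569, and those of E11.5 had 4844, 4635 and 4703. Its 3 E8.5 libraries were its lowest, and the 3 at E11.5 had an SD of 107 CPM and lay above all of E10.5. miR-23b-3p rose from E8.5 to E9.5 by 1.98 on the log2 scale (SE 0.56, adjusted p 0.0364 in edgeR). This call was close to the threshold: it was lost with library size in place of TMM (adjusted p 0.0781), with limma voom (0.0770), with the replicate block (0.0730) and in 7 of 12 fits that left out 1 library (0.0610 to 0.216), while the log2 fold change stayed between 1.65 and 2.69. The libraries whose removal ended it were E8.5 replicates 2 and 3, E9.5 replicate 3, E10.5 replicate 3 and each of the E11.5 libraries.

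mmu-miR-27b-3p, from the same cluster, was at 2094, 2165 and 665 CPM at E8.5. The later libraries had 5164, 2809 and 14388 CPM (E9.5), 3921, 4200 and 4192 CPM (E10.5), and 4048, 5681 and 5765 CPM (E11.5). The E9.5 libraries were widely spread and enclosed those of the later stages, and all 9 later libraries lay above the E8.5 ones. The E9.5 over E8.5 log2 fold change was 2.18 (SE 0.59, adjusted p 0.0261 in edgeR). Without E9.5 replicate 3, the library with the highest value, it was 1.38 with an adjusted p of 0.182, and without E8.5 replicate 3 it was 1.76 with an adjusted p of 0.195. The call was also lost with library size alone (0.0517), limma voom (0.109) and the replicate block (0.0666).

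mmu-miR-23a-3p, from the a cluster, was called in none of the 5 comparisons by edgeR with TMM factors. Its CPM was 315, 139 and 288 in the E8.5 libraries, and 1543, 1698 and 936 in those of E9.5. It was 1111, 721 and 1095 in the E10.5 libraries, and 385, 167 and 322 in those of E11.5. The E9.5 and E10.5 libraries overlapped and all lay above those of E8.5 and E11.5, which overlapped. The E9.5 over E8.5 log2 fold change of 2.49 (SE 0.91) did not pass the test (adjusted p 0.1247 in edgeR), although it did with RLE factors (3.09, adjusted p 0.0290) and in DESeq2 (3.10, adjusted p 1.27e-06). The E11.5 over E10.5 value of -1.74 (SE 0.89) did not pass either (adjusted p 0.503 in edgeR), while DESeq2 gave -1.96 with an adjusted p of 0.0318. E11.5 over E9.5 gave -2.26 (SE 0.90, adjusted p 0.193 in edgeR) and -2.98 in DESeq2 (adjusted p 4.09e-06).

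mmu-miR-27a-3p, also from the a cluster, varied the most between replicates. Its CPM was 614, 69.7 and 116 in the E8.5 libraries, and 3329, 587 and 10241 in those of E9.5. It was 773, 919 and 1792 in the E10.5 libraries, and 88.9, 143.6 and 241 in those of E11.5. E9.5 replicate 3 held the highest value and E9.5 replicate 2 fell below E8.5 replicate 1, so that these stages overlapped, whereas the E11.5 libraries lay below all of E9.5 and E10.5. miR-27a-3p rose from E8.5 to E9.5 by 4.14 on the log2 scale (SE 1.03, adjusted p 0.0169 in edgeR). Without E9.5 replicate 3 this was 2.93 (adjusted p 0.121), on removal of E8.5 replicate 2 it was 3.93 (0.0688), on removal of E8.5 replicate 3 it was 3.71 (0.161), and with limma voom it was 3.58 (0.0770). It was lower at E11.5 than at E9.5 with a difference on the log2 scale of -4.90 (SE 1.07, adjusted p 0.00653 in edgeR), a call that all 12 fits leaving out 1 library kept (-5.61 to -3.66) and that was lost with limma voom (-3.80, adjusted p 0.0732). Neither single step reached the threshold: E10.5 over E9.5 was -2.02 (SE 0.95, adjusted p 0.257) and E11.5 over E10.5 was -2.88 (SE 0.98, adjusted p 0.298) in edgeR.

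**Figure D1:**
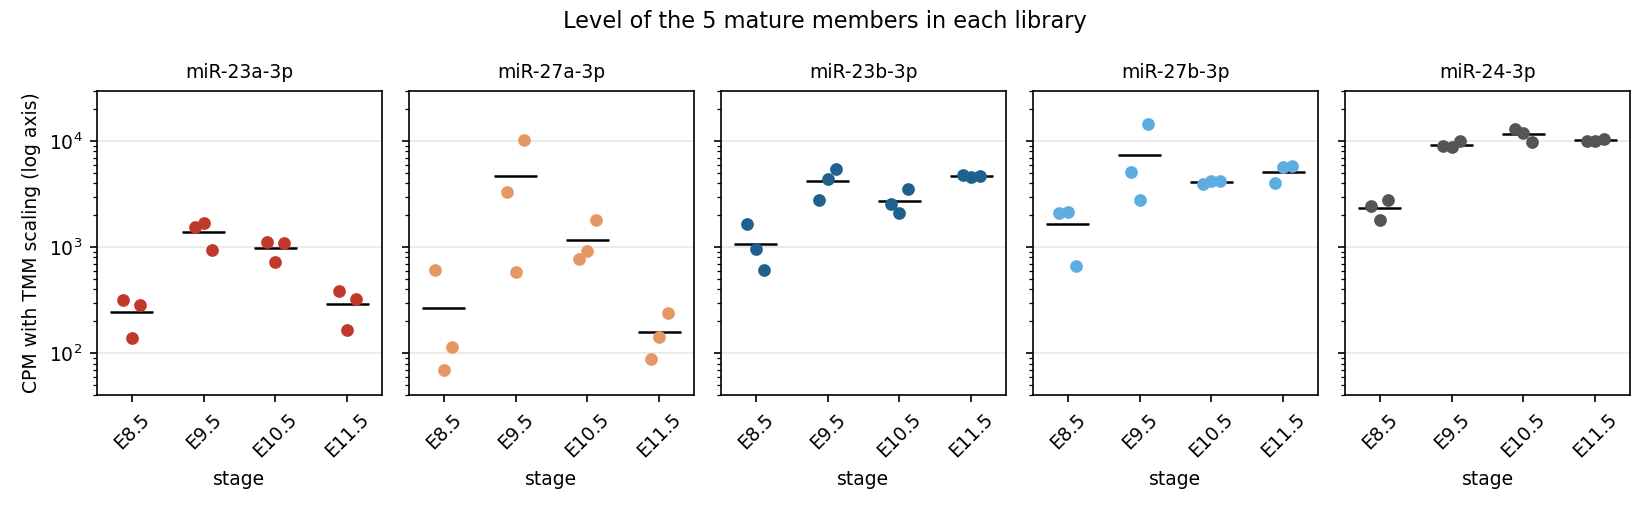
CPM with TMM scaling (log axis) of the 5 mature members in each of the 12 libraries (points) by stage, with the stage mean as a bar. In miR-24-3p, miR-23b-3p and miR-27b-3p all E11.5 libraries lay above all E8.5 libraries, whereas the miR-23a-3p libraries of E8.5 (139 to 315 CPM) and E11.5 (167 to 385 CPM) overlapped.

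Counted over the family, 4 of the 13 tested members were called between E8.5 and E9.5 (mmu-miR-24-3p, mmu-miR-27b-3p, mmu-miR-27a-3p and mmu-miR-23b-3p), against 5.60% of all 571 entries tested. All 4 were higher at E9.5, a direction in which 4.03% of all entries were called. The median log2 fold change was 2.18 over the 13 members and -0.84 over all entries, and 4 of the 13 members had a negative value. The median over all entries depended on the fit: it was -0.21 with RLE factors, -0.16 in DESeq2 and 0.04 with the 2 stages alone. Of all entries called, 23 were higher and 9 lower at E9.5, against 44 and 6 with RLE factors and 18 and 11 with library size alone. In 4 members (miR-23a-3p, miR-23b-3p, miR-27b-3p and miR-24-3p) all 3 E9.5 libraries lay above all 3 E8.5 libraries, as in 6.83% of all entries. The number of members called fell to 1 on removal of E9.5 replicate 3 or E8.5 replicate 3, and to 2 on removal of E8.5 replicate 2.

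Between E9.5 and E10.5, edgeR called 0 of 13 members (1 had an unadjusted p under 0.05, and DESeq2 called 1), against 4.38% of all entries. Between E10.5 and E11.5 it again called 0 (1 with an unadjusted p under 0.05, and 1 in DESeq2), against 0.350% of all entries. The b cluster arms gave log2 fold changes of -0.62 (miR-23b-3p, SE 0.55) and -0.86 (miR-27b-3p, SE 0.57) in the first of these steps and of 0.78 (SE 0.55) and 0.33 (SE 0.56) in the second, and that of miR-27b-3p in the first step was 0.0044 without E9.5 replicate 3. From E9.5 to E11.5, 1 member was called, mmu-miR-27a-3p, against 4.55% of all entries in either direction and 3.33% lower. The median over all entries in that comparison was 0.66 (log2 fold change), and with E9.5 replicate 3 left out 1 member was still called. miR-24-3p (0.13, adjusted p 0.823), miR-23b-3p (0.17, adjusted p 0.864) and miR-27b-3p (-0.53, adjusted p 0.562) did not pass in edgeR, and the sign of each of these log2 fold changes was reversed by at least 1 alternative.

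Between the ends of the series, E8.5 and E11.5, 2 of 13 members were called against 11.6% of all entries, and both were higher at E11.5, as were 5.25% of all entries. miR-24-3p was higher by 2.12 on the log2 scale (SE 0.37, adjusted p 3.82e-04 in edgeR), called in every alternative. miR-23b-3p was higher by 2.15 (SE 0.57, adjusted p 0.0150 in edgeR), and this call was lost on removal of E11.5 replicate 2 (adjusted p 0.0597), E8.5 replicate 2 (0.0665) or E8.5 replicate 3 (0.0872). miR-27b-3p gave 1.65 (SE 0.58, adjusted p 0.0625 in edgeR), and passed in 6 of 11 alternatives, among them limma voom (2.00, adjusted p 0.00183) and the fit without the E9.5 stage (1.76, adjusted p 0.00630). The a cluster arms gave 0.24 (miR-23a-3p, SE 0.86, adjusted p 0.917) and -0.75 (miR-27a-3p, SE 0.92, adjusted p 0.788) in edgeR, errors wide enough that a change of a few fold either way was not detectable. In 6 of the 13 members (miR-23b-3p, miR-27b-3p, miR-24-3p, mir-23b, mir-24-1 and mir-24-2), all E11.5 libraries lay above all E8.5 libraries, as in 17.3% of all entries. Of these 6, mir-24-1 and mir-24-2 had equal counts and were 1 measurement.

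**Figure D2:**
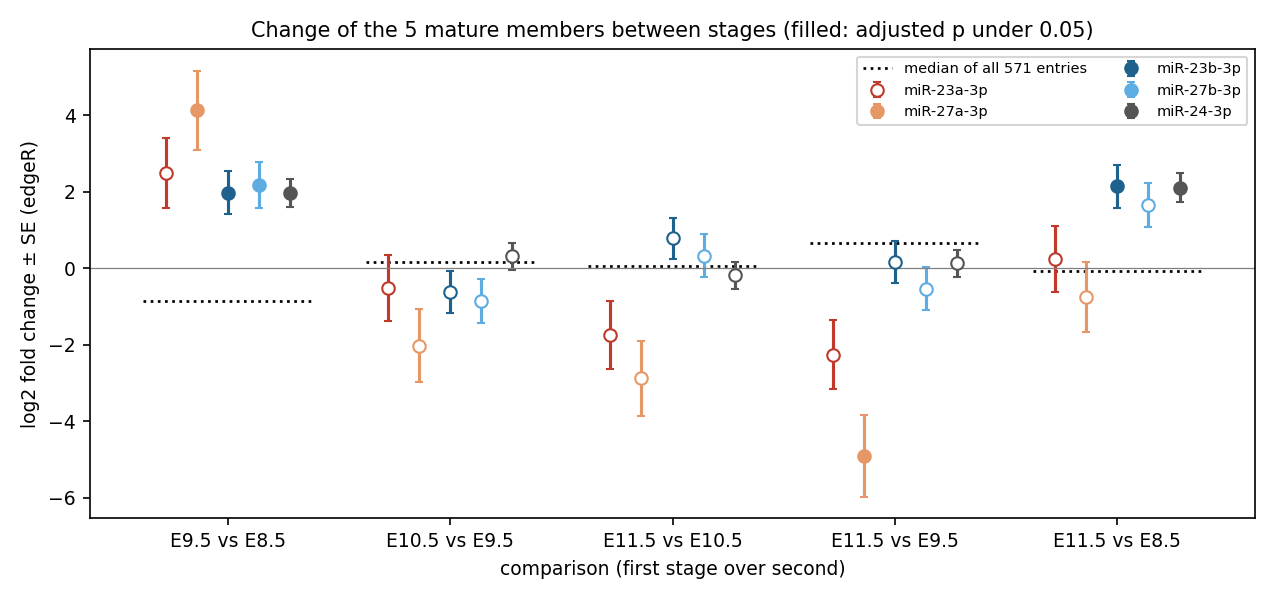
Log2 fold change ± SE (edgeR) of the 5 mature members in 5 comparisons of stages, filled where the adjusted p was under 0.05, with the median of all 571 entries as a dotted line. All 5 members were above that line in E9.5 over E8.5, all but miR-27a-3p were above it in E11.5 over E8.5, and miR-27a-3p was lowest in E11.5 over E9.5 (-4.90).

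The clusters were then compared within each library, where the scaling of the library cancels. How reads that fit both the a and the b arm of a pair were assigned is not given in the sources used here. The miR-27 arms differ only at base 19. Over the length of miR-23a-3p, the Mir23b hairpin printed above also departs from that arm only at its base 19. Reads of 17 bases and up were kept, and a read that ends before base 19 fits both arms of either pair. The miR-23b-3p to miR-23a-3p ratio of read counts was 5.20, 6.87 and 2.11 in the E8.5 libraries, and 1.79, 2.57 and 5.89 in those of E9.5. It was 2.30, 2.93 and 3.26 in the E10.5 libraries, and 12.6, 27.7 and 14.6 in those of E11.5. The b arm was the more abundant in all 12 libraries, and the 3 E11.5 libraries were above the other 9, which overlapped.

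The miR-27b-3p to miR-27a-3p ratio was 3.41, 31.0 and 5.75 in the E8.5 libraries, and 1.55, 4.78 and 1.40 in those of E9.5. It was 5.07, 4.57 and 2.34 in the E10.5 libraries, and 45.5, 39.6 and 23.97 in those of E11.5. Again the b arm led in every library and E11.5 was highest, but E8.5 replicate 2, with 27 reads of miR-27a-3p, fell within the E11.5 range. Summed over both arms, the a cluster made up 16.8 ± 9.32% of the reads of a and b together at E8.5 and 32.7 ± 7.49% at E9.5. This share was 23.4 ± 3.33% in the E10.5 and 4.36 ± 1.24% in the E11.5 libraries.

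**Figure D3:**
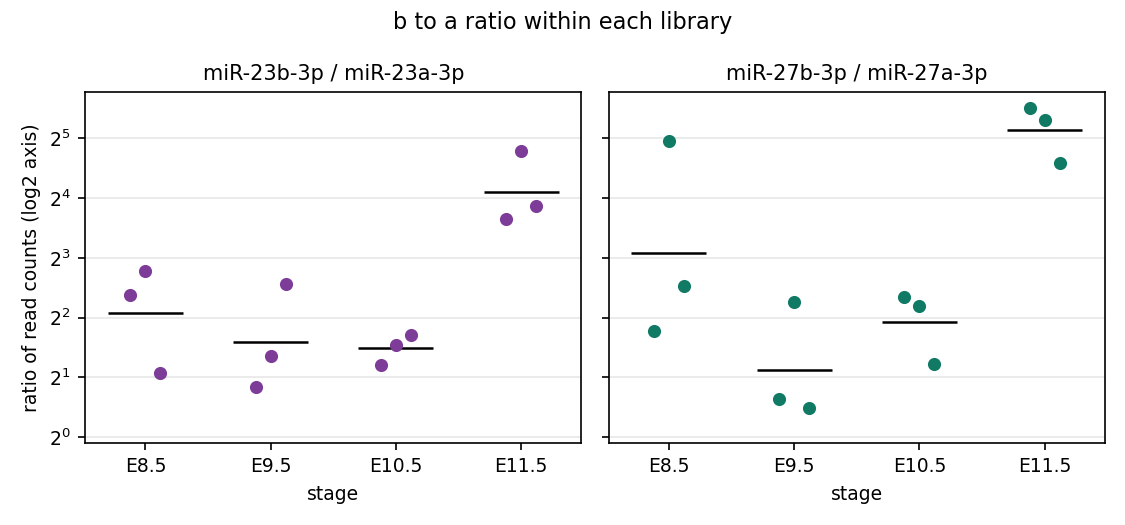
Ratio of the b to the a arm in read counts (log2 axis) in each library (points), with the geometric mean of the stage as a bar. The E11.5 libraries lay between 12.6 and 27.7 for miR-23 and between 23.97 and 45.5 for miR-27, where 1 E8.5 library reached 31.0.

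The spread over the 4 stages was tested on the log2 ratio by an exact permutation test of F, which has no direction, over the 15400 groupings of the 12 libraries, whose smallest p is 6.49e-05. The same test was run on all 36 pairs of mature arms in the table that differ only by the letter a or b. The miR-23 ratio gave an exact permutation p of 0.0132 and the miR-27 ratio gave 0.0126, and both had an adjusted p of 0.119 over the 36 pairs, so neither passed. Of the 36 pairs, 0.00% passed after adjustment and 27.8% (10 pairs) had an unadjusted p under 0.05, a background against which a change of the b to a ratio was not unusual. The 3 pairs with the smallest p were miR-7b-5p to miR-7a-5p (exact permutation p 0.00273, adjusted 0.0982), miR-130b-3p to miR-130a-3p (0.00753, adjusted 0.119) and miR-27b-3p to miR-27a-3p.

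On the log2 scale the E11.5 ratio exceeded the mean of the other libraries by 2.39 for miR-23 and by 3.09 for miR-27. Leaving out each library in turn gave 2.05 to 2.62 for miR-23 and 2.89 to 3.45 for miR-27, with adjusted permutation p-values of 0.0584 to 0.350 and 0.0947 to 0.350. Within the 3 Pdx1-Cre stages, which share the driver and dissected region, the exact permutation p was 0.0321 for miR-23 (adjusted 0.231) and 0.0107 for miR-27 (adjusted 0.171), where the smallest possible p is 0.00357. The other pair of arms, miR-23b-5p to miR-23a-5p, had few reads and a p of 0.359 in the same exact test.

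**Figure D4:**
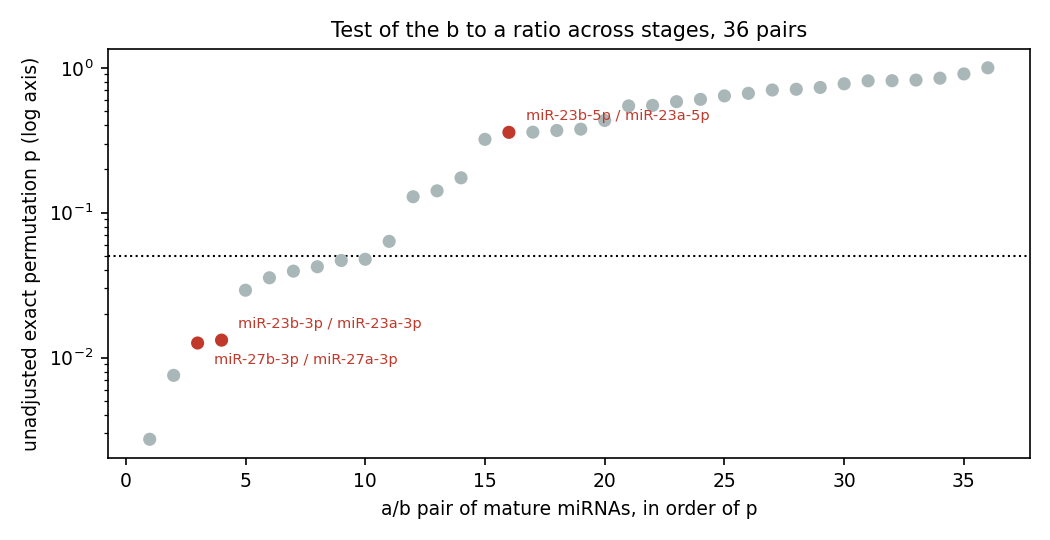
Unadjusted exact permutation p (log axis) of the b to a ratio across the 4 stages for 36 pairs of mature arms in order of p, with the miR-23 and miR-27 pairs in red and p = 0.05 as a dotted line. The miR-27 and miR-23 3p pairs were the third and the fourth, and 10 pairs lay under the line.

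Partners were also compared within a cluster. The miR-23b-3p to miR-27b-3p ratio had stage means of 0.712 ± 0.242, 0.823 ± 0.635, 0.669 ± 0.175 and 0.943 ± 0.220 from E8.5 to E11.5, and the libraries of each stage overlapped those of the next. The miR-23a-3p to miR-27a-3p ratio ranged far more widely, from 0.0914 in E9.5 replicate 3 to 4.33 in E11.5 replicate 1, with each stage overlapping the next. miR-24-3p was 1.14 ± 0.907 times the summed b arms at E8.5, and 0.956 ± 0.395, 1.72 ± 0.399 and 1.03 ± 0.0793 times in the order of the later stages.

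The reads of the a cluster arms were few against a feature of the count distribution. In every library a second level was set at the upper peak of the distribution of log2 counts of single entries, 29.7 to 139 reads. This peak was 1.75 to 7.38 times as high as the trough below it. In E10.5 replicate 2 and E11.5 replicate 1 that trough, at 4.03 counts, lay at the lower edge of the range searched. Whether the distribution was bimodal was not tested. In multiples of this level, miR-23a-3p was 0.594 to 5.70 and miR-27a-3p was 0.431 to 6.51 over the 12 libraries. miR-23b-3p spanned 2.00 to 71.7, miR-27b-3p spanned 3.74 to 59.9 and miR-24-3p spanned 6.38 to 147.5, each with its maximum in E11.5 replicate 1. Both a cluster arms thus stayed within 6.51 times this level in every library, and its part in the spread between replicates was not tested. With counts divided by this level and rounded, neither a cluster arm passed the filter, which the ratio test otherwise required of both arms. Run on these counts all the same, it gave an exact permutation p of 0.00786 for miR-23 and 0.00636 for miR-27 (both adjusted 0.0884). The ratio then rests on a cluster counts of a few units and on the pseudocount of 0.5.

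**Figure D5:**
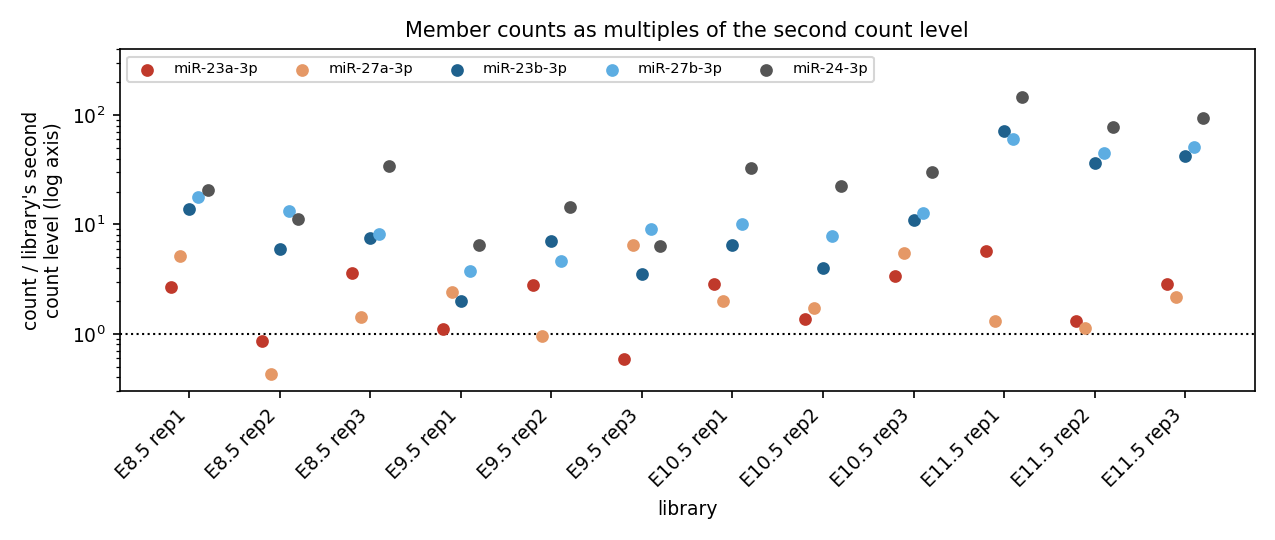
Read count of the 5 mature members in each library divided by that library's second count level (log axis), with 1 as a dotted line. The a cluster arms (red and orange) stayed at or under 6.51 in all 12 libraries, while miR-24-3p reached 147.5 at E11.5.

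The precursor entries and minor arms were sparse, and edgeR with TMM factors called none of the 8 that were tested in any of the 5 comparisons. DESeq2 called mir-24-1 and mir-24-2, which had equal counts, in E9.5 over E8.5 (3.67, adjusted p 0.0232 for each). mir-23b was the best covered, with 4 to 1258 reads per library and stage means of 205 ± 104, 161 ± 167, 669 ± 321 and 822 ± 341 CPM from E8.5 to E11.5. Its E10.5 and E11.5 libraries overlapped and lay above those of E8.5 and E9.5, which overlapped. The E11.5 over E9.5 log2 fold change was 2.39 (SE 1.12, adjusted p 0.251 in edgeR). Relative to its mature arm, mir-23b had 3.42 ± 2.64% of the miR-23b-3p reads at E9.5 and 25.9 ± 20.8%, 27.2 ± 19.2% and 17.4 ± 7.43% at E8.5, E10.5 and E11.5. How reads that fit both a precursor and an arm were assigned is not given in the sources used here.

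mir-27b had 2 to 362 reads, with means of 51.6 ± 18.5, 49.2 ± 16.5, 162 ± 19.2 and 177 ± 146 CPM from E8.5 to E11.5. mir-24-1 and mir-24-2 had equal counts in all 12 libraries (1 to 81 reads), so these 2 entries were 1 measurement, and the a and b copies cannot be told apart in it. mir-23a was seen in 8 libraries, with 68 reads in E9.5 replicate 3 and 0 in the other E9.5 libraries. Among the 5p arms, miR-23b-5p reached 92 and 262 reads in E11.5 replicates 1 and 3 but 0 in replicate 2. miR-27b-5p was seen in 6 libraries with up to 115 reads, and miR-23a-5p in 4 libraries with up to 44 reads. A value carried by 1 or 2 libraries in this way gives no level for its stage.

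Likeness was described by Pearson's r of log2(CPM + 1) over the 12 libraries, which share depth, batch and stage. Among the other entries tested, the nearest to mmu-miR-23a-3p was its cluster partner mmu-miR-27a-3p (r = 0.766), followed by mir-6240 (0.727) and miR-22-3p (0.708). The nearest to mmu-miR-27a-3p were mir-6236 (0.823), mir-6240 (0.823) and miR-21a-5p (0.808), and miR-23a-3p was sixth. mir-6236 and mir-6240 together took a larger share of the counts at E9.5 (12.7 to 28.3%) than at any other stage (at most 3.10%). mmu-miR-23b-3p was nearest to let-7c-5p (0.906), let-7e-5p (0.844) and its partner miR-27b-3p (0.841). mmu-miR-27b-3p was nearest to the epithelial miR-203-3p (0.892), to miR-194-5p (0.887) of gut and liver, and to miR-23b-3p. mmu-miR-24-3p was nearest to the hepatocyte miRNA miR-122-5p (0.972), to miR-7b-5p (0.955) and to mir-122 (0.940), all of which were low at E8.5. The arms of different clusters were less alike, with r of 0.386 between miR-23a-3p and miR-23b-3p and 0.591 between miR-27a-3p and miR-27b-3p.

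Marker miRNAs of other cells moved across the same stages. The hepatic marker miR-122-5p had a mean of 516 CPM in the E8.5 libraries, and of 64756, 91478 and 52144 CPM in those of E9.5, E10.5 and E11.5, which are labelled as pancreas. The 5 epithelial markers (the miR-200 family) summed to 9026 to 11028 CPM at E8.5 and to 16457 to 38948 CPM at the later stages, and miR-375-3p of pancreatic endocrine cells was at 16224 to 19537 CPM in the E8.5 libraries and at 17322 to 82362 CPM later. Both endothelial markers (miR-126a) were detected at every stage, with a summed 1821 to 2281 CPM at E8.5 and 32.5 to 429.5 CPM later. All 3 muscle markers were detected at E8.5 and E9.5 (5278 to 26855 CPM) and 2 of 3 later (266 to 3518 CPM, with miR-133a-3p at 0). The 7 mesenchymal markers summed to 1655 to 13763 CPM over the 12 libraries, and the 3 neural markers to at most 507 CPM. Of 5 leukocyte markers, 3 were in the table, at 10.7 to 2680 CPM at E9.5 and at most 421 CPM at the other stages. Of 3 erythroid markers, 1 was in the table, at no more than 77.9 CPM. The part of these cells in the members' changes was not tested.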

How the data were processed

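The authors deposited raw read counts per miRNA entry for 12 libraries, not normalised. Per the study's methods, small RNA (NEXTflex v3 kit) was read single-end, the adapter and 4 random bases were trimmed, reads of 17 to 35 bases (36 in 2 libraries) were kept, and COMPSRA aligned them to mm10 with STAR and counted them. Tool versions are not given in the sources used here, and the labels also list GRCm39.

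Groups came from the sample labels. The quasi-likelihood method of edgeR 4.0.16 (R 4.3.3) was applied to the counts of all 12 libraries with stage as the factor, TMM factors (0.732 to 1.17), filterByExpr (minimum count 10, total 15; 571 entries left) and Benjamini-Hochberg adjustment over those entries, with calls at 0.05. Ratios used a pseudocount of 0.5 for the test and scipy 1.17.1. Alternatives were RLE factors, library size alone, no filter, mature entries only, removal of mir-6236 and mir-6240, DESeq2 1.42.0, limma 3.58.1 voom, the 2 stages alone, a replicate block, second-level counts and each library left out. The fits were tested on simulated data. The 5 main mature arms are given in every library, other members by range. The 3 nearest entries were those with the highest Pearson's r. Members and lists were chosen with earlier results of these data known. Replicates of a stage differed by more than sampling noise (chi-square per degree of freedom 41.5 to 136.5).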

Additional observations from a re-analysis of the deposited data

How the results depend on the processing

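The a cluster arms miR-23a-3p and miR-27a-3p had 27 to 460 reads per library, and E9.5 had the smallest libraries. Whether depth limited these arms more than other members was not tested. The number of members called between E8.5 and E9.5, 4 as reported, was 7 in DESeq2, 2 with library size alone, 1 with limma voom and 2 with the replicate block, and 1 to 4 with 1 library left out. The 7 included mir-24-1 and mir-24-2, which had equal counts and were 1 measurement. DESeq2 called 1 member in E10.5 over E9.5 and 1 in E11.5 over E10.5, where edgeR called 0. For E11.5 over E9.5, DESeq2 called 2, and limma voom and the second-level counts called 0, the last with 3 members tested. For E11.5 over E8.5 the count was 1 to 3 with 1 library left out, and 1 when that library was E11.5 replicate 2, E8.5 replicate 2 or E8.5 replicate 3. The cause of these differences was not tested.

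The log2 fold changes that changed sign were all uncalled. For miR-24-3p, E10.5 over E9.5 was -0.21 with RLE factors and in DESeq2 and -0.12 without mir-6236 and mir-6240, and E11.5 over E9.5 was -0.63 with RLE factors, -0.62 in DESeq2, -0.27 without mir-6236 and mir-6240, -0.35 with the 2 stages alone, -6.64e-04 with mature entries only and -0.087 to 0.28 with 1 library left out. For miR-23b-3p, E11.5 over E9.5 was -0.62 with RLE factors and in DESeq2, -0.27 without mir-6236 and mir-6240, -0.34 with the 2 stages alone, -0.080 with the second-level counts and -0.065 to 0.42 with 1 library left out. For miR-27b-3p, E11.5 over E9.5 was 0.077 in limma voom and -1.11 to 0.37 with 1 library left out, and E10.5 over E9.5 was -1.45 to 0.0044. E11.5 over E8.5 was -0.010 to 0.50 for miR-23a-3p and -1.16 to 0.82 for miR-27a-3p with 1 library left out.

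The b to a ratios kept their direction and did not pass adjustment under any alternative run. Same-numbered libraries deviated little together over all entries tested (r of -0.15 to 0.11 over 18 pairs of libraries, 1 of them over 0.1). Libraries with different numbers were not compared in this way, so whether the replicate numbers mark a pairing is not known. With the block in the ratio test the adjusted permutation p was 0.306 for miR-23 and 0.208 for miR-27. The fits without the E9.5 stage were added after the data were seen.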
